A study of Mus musculus with 26 samples.

Results

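The 7 genes Krt5, Krt7, Krt8, Krt14, Krt18, Krt19 and Krt20 code for keratins of simple epithelia and of the epidermis, and were taken by name from the 2 tables of RNA-seq counts, each of which lists 55291 gene symbols, 54 of them numbered keratins. RNA was sequenced in 26 libraries of 10 groups. The first table holds the rescue lines, with 2 libraries for each of NPC-ΔZF1, NPC-WT, ESC-ΔZF1 and ESC-WT. These cells are E14 mouse embryonic stem cells (ESCs) whose 2 Ctcf alleles carry mAID-eGFP, with OsTIR1(F74G) at Rosa26, an Hb9 mCherry reporter, and WT CTCF or CTCF without its zinc finger 1 (ΔZF1) at Tigre. All 4 groups received 1 µM 5-Ph-IAA, which degrades the tagged CTCF, and 1 µg/ml doxycycline, which turns on the CTCF at Tigre, for 24 h. Each form of CTCF was carried by 1 line, so that the protein and the line cannot be told apart. In the second table, of the truncation lines, untreated parental E14 WT cells and cells with a homozygous cassette of eGFP and an SV40 poly(A) signal behind the first coding exon of Podxl (Podxl pA) or of Grb10 (Grb10 pA) had 3 libraries each as ESCs and as NPCs. ESCs were kept in LIF with CHIR99021 and PD0325901. NPCs are neural progenitor cells, collected on day 2 of differentiation in N2B27 medium on laminin.

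Keratins are the intermediate filament proteins of epithelial cells. A type II keratin (Krt5, Krt7, Krt8) assembles with a type I keratin (Krt14, Krt18, Krt19, Krt20), and the filaments are anchored at desmosomes. Krt8 and Krt18 are the first keratins of the mouse embryo, made in trophectoderm and then in most simple epithelia, whereas Krt5 and Krt14 mark the basal layer of stratified epithelia such as the epidermis. Neural progenitors are epithelial in shape, yet the filament proteins that mark them are vimentin and nestin.

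Krt8 (ENSMUSG00000049382.10, chr15:101996698-102004482, minus strand) and Krt18 (ENSMUSG00000023043.7, chr15:102028180-102032027, plus strand) are neighbours on chromosome 15, 23697 bases apart, in the GRCm38 build with GENCODE M21. Krt7 (ENSMUSG00000023039.17, chr15:101411043-101430313, plus strand) and Krt5 (ENSMUSG00000061527.7, chr15:101707070-101712898, minus strand) lie on the same chromosome. Krt19 (ENSMUSG00000020911.14, chr11:100140810-100148665), Krt14 (ENSMUSG00000045545.8, chr11:100203162-100207548) and Krt20 (ENSMUSG00000035775.2, chr11:99428403-99438150) all lie on the minus strand of chromosome 11. The counting did not use strand, and exons of Krt8 share 101 bases with Gm36026, those of Krt7 77 bases with Gm671 and those of Krt5 129 bases with the miRNA gene Gm44323, each on the opposite strand, so that reads there cannot be assigned. Krt8 also has a processed copy in the tables, Krt8-ps, with 222 counts over the 8 rescue libraries against 59842 for Krt8, and reads shared between the 2 are uncertain.

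RefSeq promoters of GRCm38.p6, from 250 bases before the start to 50 after it, were found for 6 of the 7 genes, all but Krt19. Those of Krt8, Krt18, Krt7 and Krt20 are shown because these genes rose together in the rescue NPCs. Capitals mark matches, on either strand, to the TATA box (TATAAA), the AP-1 site (TGANTCA), the AP-2 site (GCCNNNGGC), the GC box (GGGCGG), the E-box bound by Snail and Zeb repressors (CACCTG) and the Grainyhead site (AACCGGTT). Krt8 is at chr15:102004293-102004592 on the minus strand, Krt18 at chr15:102027966-102028265 on the plus strand, Krt7 at chr15:101412153-101412452 on the plus strand and Krt20 at chr11:99438104-99438403 on the minus strand.
Krt8: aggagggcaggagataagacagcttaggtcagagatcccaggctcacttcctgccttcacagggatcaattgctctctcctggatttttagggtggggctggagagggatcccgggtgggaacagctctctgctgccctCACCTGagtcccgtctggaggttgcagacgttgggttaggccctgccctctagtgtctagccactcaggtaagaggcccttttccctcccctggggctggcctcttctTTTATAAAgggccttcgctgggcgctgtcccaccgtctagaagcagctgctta
Krt18: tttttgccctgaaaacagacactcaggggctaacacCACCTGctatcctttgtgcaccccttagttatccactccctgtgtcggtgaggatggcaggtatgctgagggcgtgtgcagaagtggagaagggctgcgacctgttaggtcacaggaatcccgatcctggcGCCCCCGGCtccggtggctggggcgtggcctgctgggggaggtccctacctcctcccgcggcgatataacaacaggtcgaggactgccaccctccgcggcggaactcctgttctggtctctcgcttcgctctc
Krt7: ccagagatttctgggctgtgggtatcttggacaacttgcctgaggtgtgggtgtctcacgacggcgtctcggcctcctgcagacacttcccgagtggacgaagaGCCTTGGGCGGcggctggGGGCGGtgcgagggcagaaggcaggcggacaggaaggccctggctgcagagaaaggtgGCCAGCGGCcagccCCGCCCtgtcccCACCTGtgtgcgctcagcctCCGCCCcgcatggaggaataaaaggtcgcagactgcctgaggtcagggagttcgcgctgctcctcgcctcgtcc
Krt20: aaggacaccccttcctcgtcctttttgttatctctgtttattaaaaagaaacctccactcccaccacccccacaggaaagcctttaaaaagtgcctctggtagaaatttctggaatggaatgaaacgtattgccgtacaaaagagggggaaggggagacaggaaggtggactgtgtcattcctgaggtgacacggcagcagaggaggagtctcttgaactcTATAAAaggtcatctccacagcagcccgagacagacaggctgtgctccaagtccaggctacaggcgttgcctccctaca
The E-box stood 111 bases before the start in Krt8, 214 in Krt18 and 44 in Krt7, and 20.2% of all 32851 promoters hold it. It was also found in Krt5, 128 bases before the start, and not in Krt20 or Krt14. An AP-2 site stood 83 bases before the start in Krt18 and 146 and 70 in Krt7 (16.6% of all promoters). Krt7 also held 4 GC boxes (35.7%), the first of which overlaps an AP-2 match. The TATA box stood 29 bases before the start in Krt20, and in Krt8 2 overlapping matches on opposite strands began 3 bases and 1 base before the start (13.6% of all promoters). The AP-1 site (7.8%) and the Grainyhead site (0.1%) were in none of the 6 promoters, and the Krt14 window held no match of any kind. The RefSeq starts of Krt14 and Krt7 lie 1518 and 1360 bases inside the GENCODE gene, so that their windows are not at its 5′ end. Those of Krt8 and Krt18 lie 140 and 36 bases inside it, and positions are counted from the RefSeq start. The promoters of the 4 genes thus shared no motif of those searched.

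The rescue libraries held 6425179 to 28730435 counts on genes, and those of the truncation lines 1907505 to 8845087. Values are given as normalized counts, scaled to the median library of the same table, and the 2 tables were scaled and tested separately. Levels of different genes are compared as TMM-scaled CPM per kb of exon (level per kb). In the truncation lines, Podxl lay between 92.4 and 108 normalized counts in NPC Podxl pA against 1029 to 1150 in NPC E14 WT, and Grb10 between 231 and 264 in NPC Grb10 pA against 3411 to 3612. In ESC Podxl pA, replicate 3, the smallest library, held 57.1 normalized counts of Podxl while the lowest library held 13.3, below the 117 to 155 of ESC E14 WT. Ctcf counts in the rescue lines hold reads of the tagged and the Tigre copy together and do not check the degradation. Genes of chromosome 11 had a median log2 fold change of -0.46 in ESC-ΔZF1 against ESC-WT and of -0.57 in NPC-ΔZF1 against NPC-WT, while those of chromosome 15 had medians of 0.01 and -0.04. In Grb10 pA against E14 WT the chromosome 8 median was -0.49 in ESCs and -0.48 in NPCs, and no keratin of the 7 lies there. Podxl pA and Grb10 pA effects below are differences from E14 WT. In them the truncation and other differences between the lines cannot be told apart.

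Krt8 and Krt18 made up most of the counts on the 7 genes in every library. They held 90.8% to 92.7% of the counts of the 7 genes in the rescue libraries, and 64.9% to 87.2% in those of the truncation lines. The 7 genes together held 0.288% and 0.414% of all counts in the 2 NPC-WT libraries, 0.115% and 0.111% in NPC-ΔZF1, and between 0.00801% and 0.0162% in the rescue ESCs. In the truncation lines the share lay between 0.00328% and 0.0136%. Of the other 47 numbered keratins, 8 had enough counts to be tested in the rescue table and 3 in the other. The type I genes Krt17 and Krt42, were well expressed in ESCs. In the ESCs of the truncation table they held 41.2% to 56.9% of the counts on all 54 numbered keratins, where Krt8 and Krt18 held 30.7% to 36.8%, and in its NPCs 1.26% to 4.55%, where Krt8 and Krt18 held 69.0% to 80.7%. In the rescue table Krt17 and Krt42 held 12.8% to 23.8% in ESCs and 0.329% to 0.434% in NPCs. Krt17 fell by 4.63 ± 0.30 on the log2 scale from ESC E14 WT to NPC E14 WT and by 1.83 ± 0.28 from ESC-WT to NPC-WT, and Krt42 fell by 3.47 ± 0.26 from ESC E14 WT to NPC E14 WT. The basal keratin Krt15 had 0 counts in ESC-WT and 31.3 and 32.4 normalized counts in NPC-WT.

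**Figure D1:**
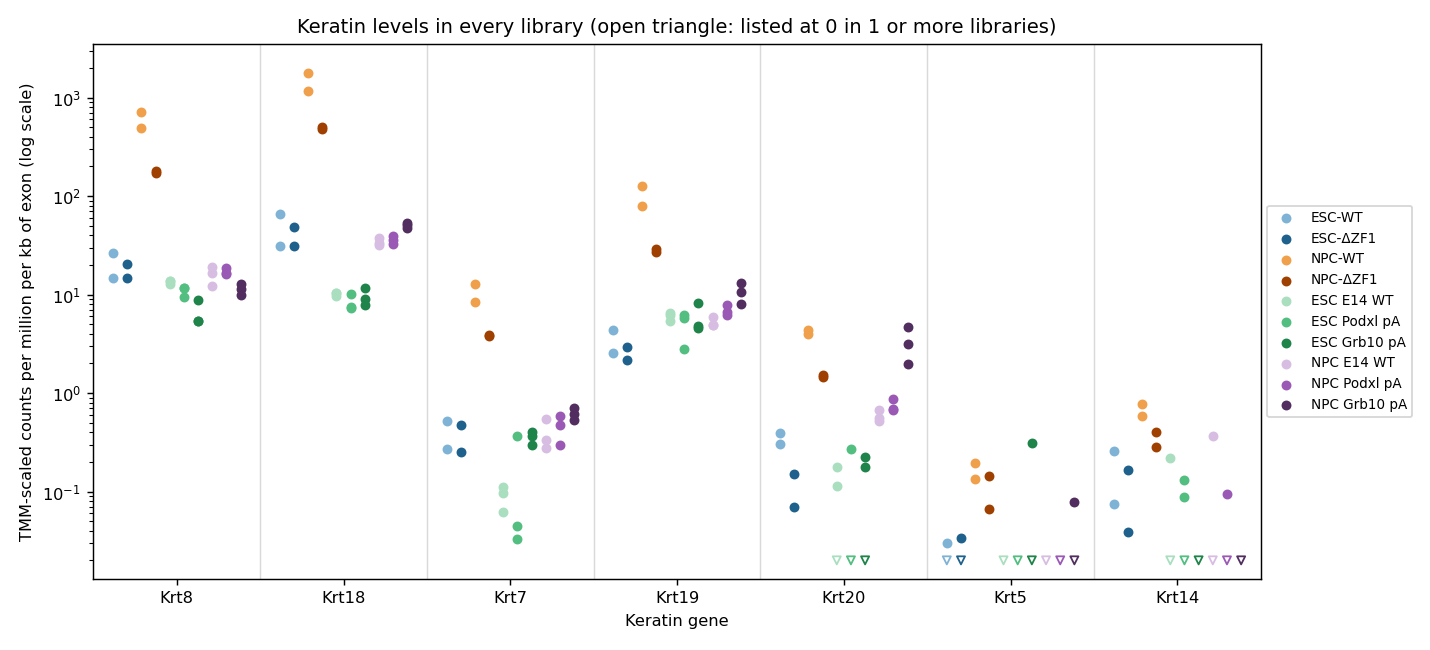
Level per kb of each keratin (log axis, TMM-scaled CPM per kb of exon) in every library of the 10 groups, with 1 point per library and an open triangle where at least 1 library of a group is listed at 0. Krt18 and Krt8 are highest in the 2 NPC-WT libraries, at 1165 and 1795 and at 494 and 708, and Krt5 and Krt14 stay below 1 in every library.

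Upon differentiation of the CTCF WT rescue line, Krt8, the type II keratin of simple epithelia, was at 781 and 437 normalized counts in ESC-WT and at 14573 and 20888 in NPC-WT. Its partner Krt18 was at 1416 and 670 in ESC-WT and at 25222 and 38868 in NPC-WT. All NPC libraries were far above all ESC libraries, although the libraries of a group differed, with replicate 1 higher in ESC-WT and replicate 2 higher in NPC-WT. Krt8 rose 29.7-fold (log2 fold change 4.89 ± 0.30 SE, edgeR adjusted p = 1.44e-06) and Krt18 31.2-fold (4.97 ± 0.38, edgeR adjusted p = 5.05e-06).

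Krt7, a keratin of ducts and of trophoblast, was at 55.3 and 28.5 normalized counts in ESC-WT and at 893 and 1351 in NPC-WT. Krt19, the smallest type I keratin, was at 122 and 71.7 in ESC-WT and at 2192 and 3556 in NPC-WT. Krt20, a keratin of intestinal and urothelial surface cells, was at 11.5 and 8.8 in ESC-WT and at 114 and 126 in NPC-WT. None of these groups overlapped. The share of all genes whose libraries did not overlap was not counted, for this or any other comparison. The log2 fold changes were 4.88 ± 0.34 for Krt7, 4.98 ± 0.30 for Krt19 and 3.61 ± 0.31 for Krt20, so that 4 keratins of simple epithelia rose by much the same factor of 29.5 to 31.6 and Krt20 by 12.2. Krt14, the type I keratin of basal epidermis, had only 3 and 2 counts in ESC-WT and 24 and 16 in NPC-WT, and rose by 2.27 ± 0.70 on the log2 scale (edgeR adjusted p = 0.0224). It was not called without ESC-WT replicate 2 (adjusted p = 0.296) or by DESeq2 (adjusted p = 0.0551). Thus 6 of the 6 keratins that passed the filter on low counts rose, where 22.0% of all 16641 genes tested did. Calls here and below needed an adjusted p no higher than 0.05 and a log2 fold change of 0.5 or more, up or down. In bulk RNA, more cells with keratin and more keratin RNA per cell cannot be told apart.

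Krt5, the type II partner of Krt14, did not pass the filter. It had 0 and 1 counts in ESC-WT, 7 and 5 in NPC-WT, 1 and 0 in ESC-ΔZF1 and 9 and 4 in NPC-ΔZF1. The ratio of summed, depth-scaled counts of NPC-WT to ESC-WT was 7.45, with an exact 95% interval of 1.10 to 318 that covers counting error only. A simple-epithelial set was therefore high in these NPCs while the epidermal pair stayed near the limit of detection. In level per kb, Krt18 came first in NPC-WT (1480 ± 446, mean ± SD, n = 2), then Krt8 (601 ± 151), Krt19 (103 ± 34.5), Krt7 (10.6 ± 3.05), Krt20 (4.13 ± 0.276), Krt14 (0.68 ± 0.144) and Krt5 (0.165 ± 0.0428). No library of a gene in this order overlapped the next. The exon length of Krt7, 7049 bases, is 1.72 times its longest coding transcript, with which its level would be 18.2 and its place the same.

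In the ΔZF1 rescue line, 5 of 6 tested keratins rose from ESCs to NPCs, where 20.4% of all genes did. Krt8 was at 433 and 607 normalized counts in ESC-ΔZF1 and at 5343 and 5021 in NPC-ΔZF1, a 9.96-fold rise (log2 fold change 3.32 ± 0.28, edgeR adjusted p = 8.31e-06). Krt18 was at 676 and 1059 in ESC-ΔZF1 and at 10973 and 10445 in NPC-ΔZF1, a 12.3-fold rise (3.62 ± 0.35). Krt7 rose by 3.41 ± 0.32, Krt19 by 3.46 ± 0.29 and Krt20 by 3.72 ± 0.38 on the log2 scale, with no overlap between ESCs and NPCs. Krt14 had 4 and 1 counts in ESC-ΔZF1 and 14 and 19 in NPC-ΔZF1 and was not called (log2 fold change 1.71 ± 0.72, edgeR adjusted p = 0.0781).

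In ESCs, the keratins of the ΔZF1 line could not be separated from those of the WT line. Of 6 tested, 0 were called by edgeR and 0 by DESeq2, 1 had an unadjusted edgeR p under 0.05, and 3.61% of all genes were called. Krt8, Krt18, Krt7, Krt19 and Krt14 overlapped between the groups. Krt20 did not overlap, at 11.5 and 8.8 normalized counts in ESC-WT and 4.4 and 2.0 in ESC-ΔZF1, and its log2 fold change of -1.58 ± 0.55 missed the threshold (edgeR adjusted p = 0.157).

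In NPCs, the keratins of simple epithelia were lower in the ΔZF1 line. Of 6 tested keratins 5 fell, where 10.5% of all genes fell. Krt8 was at 14573 and 20888 normalized counts in NPC-WT against 5343 and 5021 in NPC-ΔZF1, 3.42-fold lower (log2 fold change -1.77 ± 0.25, edgeR adjusted p = 0.00149). Krt18 was 2.99-fold lower (-1.58 ± 0.32, edgeR adjusted p = 0.00791), at 25222 and 38868 against 10973 and 10445. This call for Krt18 was lost without NPC-ΔZF1 replicate 1 (adjusted p = 0.0609) or replicate 2 (0.0712), at log2 fold changes of -1.62 and -1.54. The 2 NPC-ΔZF1 libraries lay close together and the 2 NPC-WT libraries did not, yet no NPC-ΔZF1 library reached an NPC-WT library.

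Krt7 was at 893 and 1351 in NPC-WT against 416 and 407 in NPC-ΔZF1 (log2 fold change -1.44 ± 0.24, edgeR adjusted p = 0.00337). Krt19 was at 2192 and 3556 against 819 and 755 (-1.86 ± 0.23, edgeR adjusted p = 0.000824), the largest fall of the 6 tested as long as chromosome 11 is not adjusted for. Krt20 was at 114 and 126 against 42.5 and 43.8 (-1.47 ± 0.21, edgeR adjusted p = 0.00164). Krt14 was at 15.3 and 20.7 against 7.4 and 10.5 and was not called (-0.96 ± 0.49, edgeR adjusted p = 0.189). Krt19 and Krt20 lie on chromosome 11, and with the median of that chromosome taken into the offsets they fell by 1.30 and 0.90 on the log2 scale (adjusted p = 0.00551 and 0.0193). Krt8, Krt18 and Krt7 on chromosome 15 kept their values under that setting.

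Whether the difference between the lines was larger in NPCs than in ESCs was tested as the difference of the 2 differences. It was -1.58 ± 0.37 for Krt8 (edgeR adjusted p = 0.0558), -1.52 ± 0.41 for Krt19 (0.0915), -1.47 ± 0.49 for Krt7 (0.156), -1.34 ± 0.46 for Krt18 (0.164) and 0.11 ± 0.49 for Krt20 (0.933), all on the log2 scale. edgeR called 0 of 6 keratins, with 4 at an unadjusted p under 0.05, and DESeq2 called 3 of 6, where edgeR called 2.70% of all genes. Without NPC-WT replicate 1, Krt8, Krt18, Krt7 and Krt19 were at -1.90, -1.70, -1.79 and -1.89 on this scale. Without NPC-WT replicate 2 they were at -1.41, -1.11, -1.22 and -1.22. Without ESC-WT replicate 1, Krt8 was at -2.04. Each of these fits leaves 1 library in a group, so its calls are not counted. The keratins were thus lower in NPC-ΔZF1 than in NPC-WT. Whether a larger difference in NPCs than in ESCs was called depended on the tool, and its size on single libraries.

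**Figure D2:**
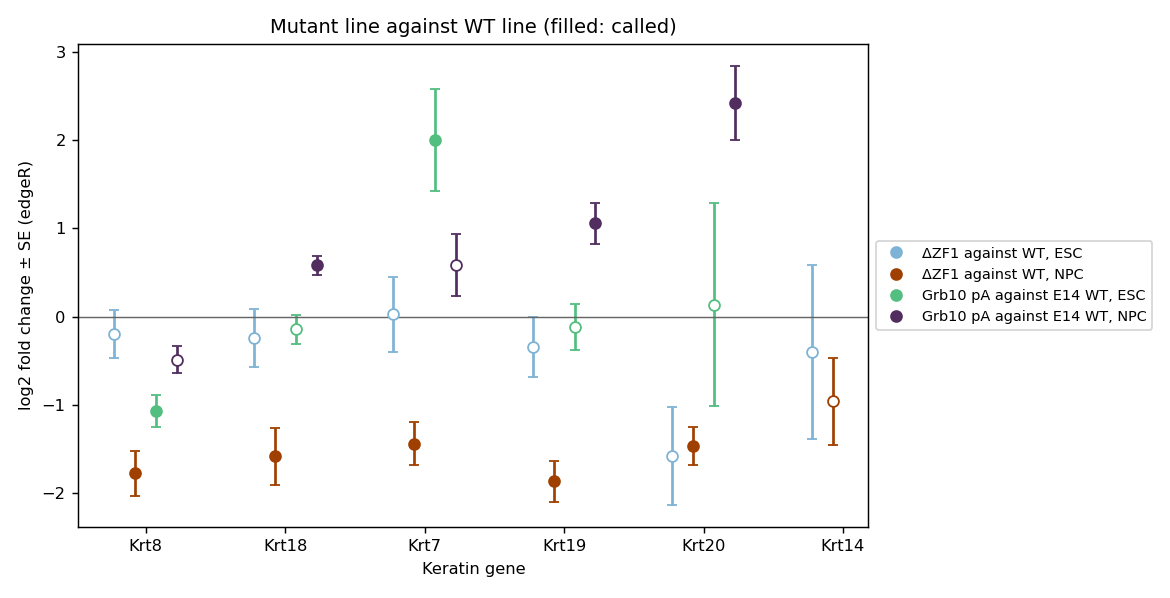
log2 fold change (± SE, edgeR) of each tested keratin in ΔZF1 against WT rescue lines and in Grb10 pA against E14 WT, in ESCs and NPCs, with filled points called. Krt8, Krt18, Krt7, Krt19 and Krt20 lie between -1.44 and -1.86 in NPC-ΔZF1 against NPC-WT, and Krt20 lies at 2.42 in NPC Grb10 pA against NPC E14 WT.

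Keratins attach to desmosomes and belong to a wider epithelial programme, and lists of its genes were counted beside them. In NPC-WT against ESC-WT 22.0% of all genes rose and 19.9% fell. Of the genes of desmosomes and keratin linkers, 8 of 13 tested rose and 0 fell, with a median log2 fold change of 1.52 against 0.01 over all genes. Among them were the desmosomal cytolinker genes Ppl (3.04 ± 0.22) and Dsp (1.88 ± 0.11) and the desmosomal cadherin genes Dsc2 (2.59 ± 0.27) and Dsc3 (2.28 ± 0.39). Of 23 genes of epithelial junctions and adhesion, 16 rose and 1 fell (median 1.34), with the claudin genes Cldn6 (3.27 ± 0.12) and Cldn4 (3.02 ± 0.19) among those that rose. Of 17 epithelial transcription and splicing factors, 15 rose and 2 fell (median 2.02). These included Gata3 (4.40 ± 0.21), Dlx3 (3.37 ± 0.24) and the Grainyhead factor gene Grhl2 (3.31 ± 0.17).

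In NPC-ΔZF1 against NPC-WT 10.5% of all genes fell and 7.19% rose. Of the desmosome and linker genes, 6 of 13 fell and 0 rose (median log2 fold change -0.34 against 0.00 over all genes). The envelope plakin genes Evpl (-1.45 ± 0.24) and Ppl (-1.33 ± 0.18) and the plakophilin gene Pkp3 (-1.41 ± 0.18) were among them. Of 23 junction genes 12 fell and 0 rose (median -0.65), with the claudin genes Cldn4 (-1.25 ± 0.17) and Cldn7 (-1.07 ± 0.14) among them. Of 17 epithelial factors 7 fell and 2 rose (median -0.65), with Dlx3 at -1.52 ± 0.19 and Klf5 at 0.92 ± 0.12. Of 14 other intermediate filament genes 6 fell and 1 rose (median -0.70). The gene that rose was Vim, which codes for vimentin (1.85 ± 0.11), while Lmna, which codes for lamins A and C, fell (-1.61 ± 0.26). Of the other type I keratins, 2 of 6 tested fell, Krt42 (-2.07 ± 0.24) and Krt15 (-1.31 ± 0.36). Neither these lists nor the marker lists below were adjusted for chromosome 11. On that chromosome 573 of 1322 tested genes fell in NPC-ΔZF1 against NPC-WT and 17 rose.

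Keratins are also made by other cells of the early embryo, and markers of these were counted as well. From ESC-WT to NPC-WT, 9 of 9 pluripotency markers fell (median log2 fold change -3.57), where 19.9% of all genes fell and 22.0% rose. Of the neural progenitor markers 4 of 7 rose (median 1.47), among them Sox1 (1.68 ± 0.19) and Nes (1.56 ± 0.18). Of the defining neural markers, Fabp7 and Hes5 were at 0 counts in NPC-WT. At the same time 7 of 7 surface ectoderm markers rose (median 3.37), 6 of 7 trophoblast markers rose and 1 fell (median 4.12), and 9 of 13 extraembryonic endoderm markers rose (median 2.04). The summed level of the 8 surface ectoderm markers lay between 539 and 580 normalized counts in ESC-WT and between 4113 and 4877 in NPC-WT. Dlx5 of that list was at 0 in ESC-WT. The sum of the 10 trophoblast markers lay between 1837 and 2008 and between 8439 and 9582, with Prl3d1 and Tpbpa at 0 in both groups. The mesoderm sum went from 125 to 129 in ESC-WT to 678 to 821 in NPC-WT, where Mesp1 and Msgn1 were at 0. Of the surface ectoderm list, 7 of 8 genes also stand among the epithelial factors, as do 4 of the 10 trophoblast markers.

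In NPC-ΔZF1 against NPC-WT these lists parted. Extraembryonic endoderm markers rose, 13 of 13 tested (median log2 fold change 2.68), where 7.19% of all genes rose, from a sum of 12121 to 15517 in NPC-WT to 83717 to 86022 in NPC-ΔZF1, with Sox17 at 3.16 ± 0.22, Gata6 at 3.12 ± 0.20 and Apoa1 at 0 counts in NPC-WT. While 10.5% of all genes fell, trophoblast markers fell in 5 of 7 and rose in 1 (median -0.68), with sums of 8439 to 9582 and 4963 to 5099. Surface ectoderm markers fell in 4 of 7 and rose in 1 (median -0.87), with sums of 4113 to 4877 and 2217 to 2273. Neural progenitor markers rose in 3 of 7 and fell in 1 (median 1.00), with overlapping sums. Mesoderm markers fell in 2 of 6 and rose in 0 (median -0.44), with sums of 678 to 821 and 380 to 391. In NPC-ΔZF1 the called keratins were lower, as were the surface ectoderm, trophoblast and mesoderm sums, while the extraembryonic endoderm sum was higher. These lists share genes, Gata3 between surface ectoderm and trophoblast and Hand1, on chromosome 11, between trophoblast and mesoderm. The part of any of these cell types in the keratin levels was not tested.

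**Figure D3:**
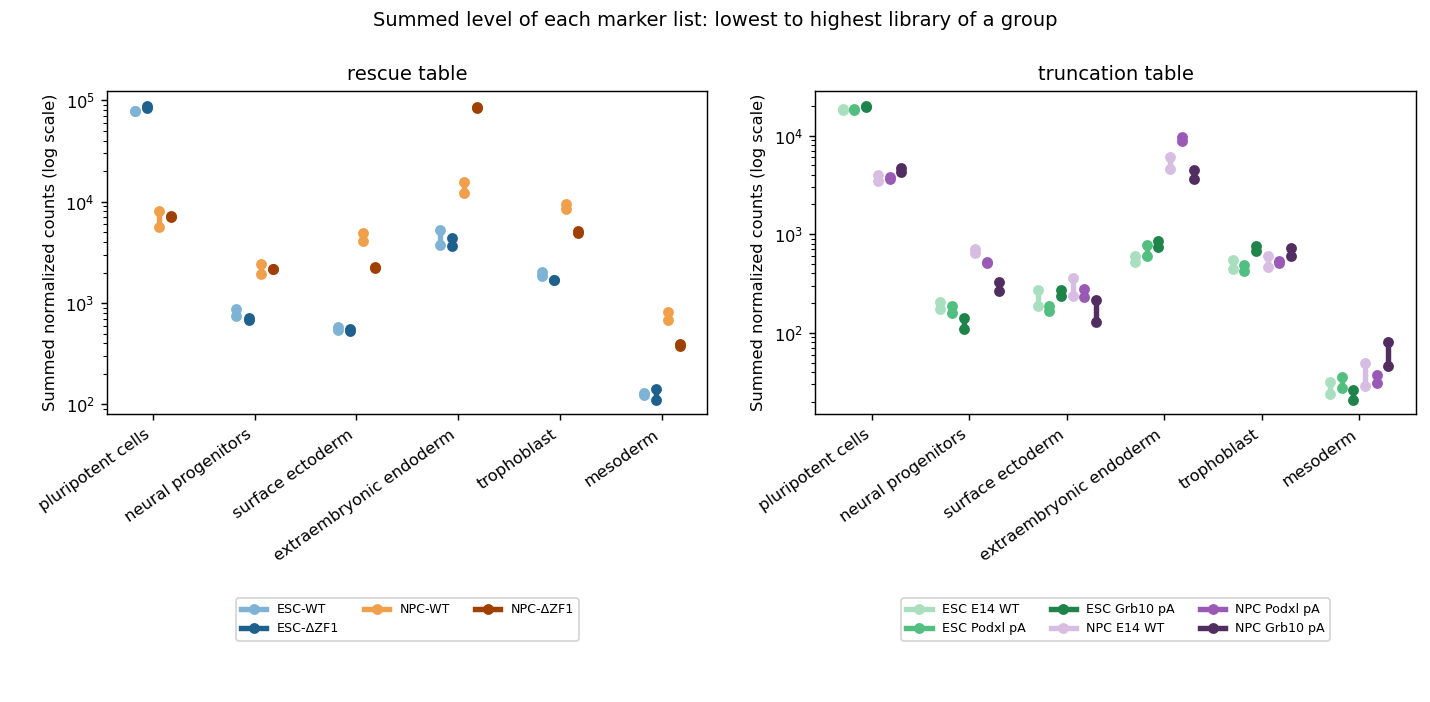
Summed normalized counts of each marker list (log axis, lowest to highest library of each group joined by a bar) in the rescue table and in the truncation table. The extraembryonic endoderm sum is 83717 to 86022 in NPC-ΔZF1 and 12121 to 15517 in NPC-WT, while the surface ectoderm and trophoblast sums are lower in NPC-ΔZF1.

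In the parental E14 WT line, differentiation changed the keratins less and unevenly. Krt18 was at 67.0, 65.6 and 62.3 normalized counts in ESC E14 WT and at 239, 206 and 212 in NPC E14 WT, a 3.33-fold rise (log2 fold change 1.74 ± 0.14, edgeR adjusted p = 4.01e-11). Krt8 was at 119, 111 and 121 in ESCs and at 107, 145 and 165 in NPCs. These groups overlapped, and the log2 fold change of 0.26 ± 0.16 was not called (edgeR adjusted p = 0.182). Krt19 was at 53.4, 51.1 and 45.0 in ESCs and 49.0, 40.8 and 40.5 in NPCs, also overlapping (-0.23 ± 0.26, edgeR adjusted p = 0.498).

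Krt7 had 2, 4 and 2 counts in ESC E14 WT and 6, 25 and 7 in NPC E14 WT, with no overlap (2.21 ± 0.55, edgeR adjusted p = 0.00171). Krt20 had 1, 2 and 0 counts in ESC E14 WT and 4, 7 and 3 in NPC E14 WT, and was called at 2.15 ± 0.84 (edgeR adjusted p = 0.0361). Its call was lost without any single library of the 2 groups (adjusted p of 0.0503 to 0.086) and by DESeq2 (0.0501), and the ratio of summed counts was 4.81 with an exact 95% interval of 1.34 to 26.1. Thus 3 of 5 tested keratins rose, where 16.5% of all 13268 genes did, and Krt5 and Krt14 did not pass the filter. Krt5 had 0 counts in every E14 WT library, and Krt14 had 1 count in the ESCs and 2 in the NPCs. A count of 0 allows up to 3 counts in a library, which is between 2.04 and 5.19 normalized counts in these 6 libraries.

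The Podxl pA line gave 4 rises of 5, where 17.1% of all genes rose. Krt8 rose by 0.63 ± 0.16 on the log2 scale, Krt18 by 2.20 ± 0.14 and Krt7 by 2.22 ± 0.54. Krt20 had 0, 0 and 1 counts in the ESCs and 5, 9 and 8 in the NPCs, a ratio of summed counts of 18.3 with an exact 95% interval of 2.96 to 756. Krt19 was not called (0.61 ± 0.26, edgeR adjusted p = 0.0523). The Grb10 pA line also gave 4 rises of 5, where 17.2% of all genes rose. Krt18 rose by 2.46 ± 0.13, Krt19 by 0.95 ± 0.23 and Krt8 by 0.84 ± 0.18. Krt20 had 2, 1 and 0 counts in the ESCs and 54, 36 and 22 in the NPCs, a ratio of 23.4 with an interval of 7.79 to 115. Krt7 was not called (0.79 ± 0.37, edgeR adjusted p = 0.078). Krt18 and Krt20 were thus called in all 5 lines, Krt20 from few counts in the untreated ones.

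**Figure D4:**
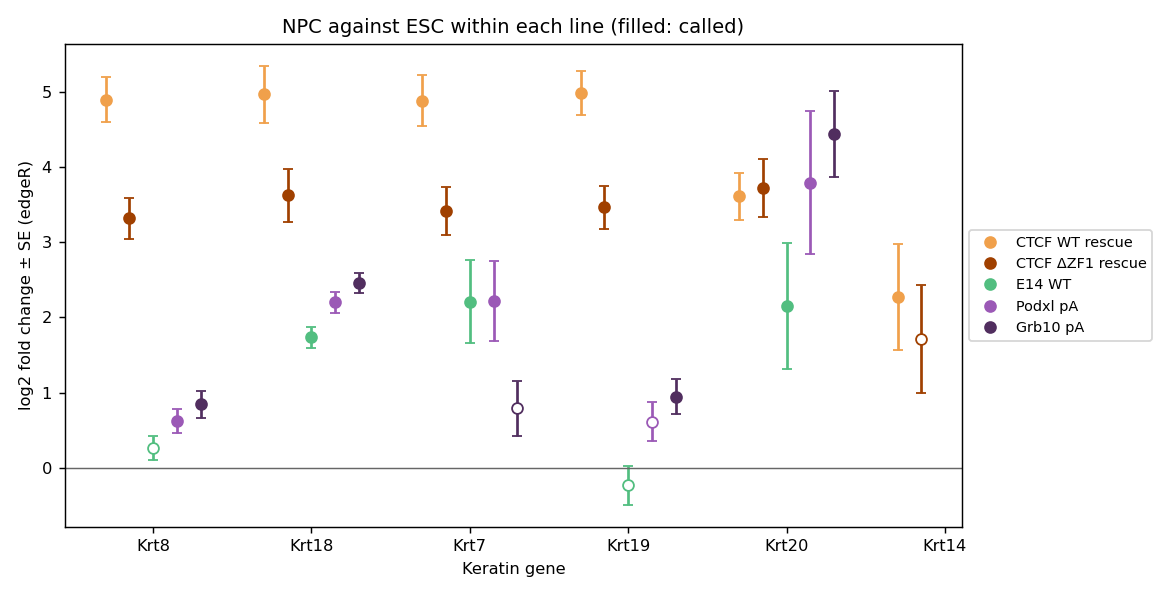
log2 fold change (± SE, edgeR) of each tested keratin from ESCs to NPCs within each of the 5 lines, with filled points called. Krt8 lies at 4.89 and 3.32 in the rescue lines and between 0.26 and 0.84 in the untreated lines, and Krt18 lies between 1.74 and 4.97 and is called in every line.

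In level per kb, Krt18 reached 34.2 ± 2.77 (SD, n = 3) and Krt8 15.9 ± 3.40 in NPC E14 WT, beside 1480 ± 446 and 601 ± 151 in NPC-WT. ESC levels were closer, at 10.1 ± 0.381 for Krt18 and 13.4 ± 0.647 for Krt8 in ESC E14 WT and at 48.2 ± 24.4 and 20.6 ± 8.23 in ESC-WT. The 2 tables were made and normalized apart, and the rescue cells differ from the untreated cells in genotype and treatment, so that these levels stand side by side without a test. Of all genes, 16.5% were called up in NPC E14 WT against ESC E14 WT. The surface ectoderm markers were called up in 1 and down in 1 of 4 tested, and the trophoblast markers up in 4 of 7. Their sums overlapped between ESC and NPC E14 WT, at 189 to 275 and 235 to 360 for surface ectoderm and at 440 to 552 and 467 to 599 for trophoblast. Extraembryonic endoderm markers rose in 11 of 11 (median log2 fold change 3.76), from a sum of 517 to 598 to one of 4623 to 6013, and Sox1 rose by 4.01 ± 0.16. Their part in the keratin levels was not tested.

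No keratin was called between the Podxl pA line and E14 WT. In ESCs edgeR called 0 of 5 and DESeq2 0 of 5, with 1 at an unadjusted edgeR p under 0.05, where 0.339% of all genes were called. In NPCs edgeR called 0 of 5 and DESeq2 0 of 5, with 0 at an unadjusted p under 0.05, where 0.550% were called. In the difference between the 2 effects edgeR and DESeq2 each called 0 of 5, where edgeR called 0.0980% of all genes and 2 keratins had an unadjusted edgeR p under 0.05. Extraembryonic endoderm markers were higher in 6 of 11 in NPC Podxl pA, where 0.384% of all genes were, with a sum of 8726 to 9562 against 4623 to 6013. Libraries of the lines did not overlap for Krt8 in ESCs, at 101, 101 and 82.6 normalized counts in Podxl pA against 119, 111 and 121 (log2 fold change -0.26 ± 0.17, edgeR adjusted p = 0.678). Nor did they for Krt19 in NPCs, at 51.5, 55.3 and 65.4 against 49.0, 40.8 and 40.5 (0.43 ± 0.25, edgeR adjusted p = 0.601). Neither gene was called, and how many of all genes lacked overlap was not counted. In ESC Podxl pA, Krt7 was at 1.0 and 1.4 normalized counts in replicates 1 and 2 and at 11.5 in replicate 3, the library that also held the most Podxl. Without that library its log2 fold change against ESC E14 WT turned from 0.07 to -1.07.

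The Grb10 pA line differed from E14 WT in a pattern that changed from ESCs to NPCs. In ESCs, 2 of 5 tested keratins were called, 1 up and 1 down, where 9.09% of all genes were called. Krt8 was at 47.2, 76.9 and 47.5 normalized counts in ESC Grb10 pA against 119, 111 and 121 in ESC E14 WT, 2.10-fold lower (log2 fold change -1.07 ± 0.18, edgeR adjusted p = 0.000141). Krt18 overlapped, at 57.8, 73.8 and 49.6 against 67.0, 65.6 and 62.3 (-0.14 ± 0.16, edgeR adjusted p = 0.625). Krt7 had 13, 6 and 11 counts against 2, 4 and 2 and was higher by 2.00 ± 0.58 (edgeR adjusted p = 0.018). That call was lost without ESC Grb10 pA replicate 1 (0.0524) and without ESC E14 WT replicate 1 (0.0751) or 2 (0.0619).

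In NPCs, 3 of 5 tested keratins were higher in Grb10 pA, where 7.90% of all genes were. Krt18 was at 343, 304 and 327 normalized counts in NPC Grb10 pA against 239, 206 and 212 in NPC E14 WT (log2 fold change 0.58 ± 0.11, edgeR adjusted p = 0.000272). Krt19 was at 109, 65.5 and 87.6 against 49.0, 40.8 and 40.5 (1.06 ± 0.23, edgeR adjusted p = 0.00112). Krt20 had the largest difference, with 54, 36 and 22 counts against 4, 7 and 3, or 5.36-fold (2.42 ± 0.42, edgeR adjusted p = 9.74e-05). None of these 3 overlapped. Krt8 went the other way, at 99.2, 85.5 and 111 normalized counts against 107, 145 and 165, and its log2 fold change of -0.49 ± 0.15 (edgeR adjusted p = 0.0189) stayed just short of the fold threshold. With the genes of chromosome 8 left out of the fit it was -0.51 and past it. Krt7 was not called (0.58 ± 0.35, edgeR adjusted p = 0.229).

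The difference between the Grb10 pA effects in NPCs and in ESCs was called upward for 2 of 5 keratins, where 2.86% of all genes were called upward. It was 0.72 ± 0.20 for Krt18 (edgeR adjusted p = 0.0269) and 1.18 ± 0.35 for Krt19 (0.0403). For Krt8 it was 0.58 ± 0.24 (0.144) and for Krt20 2.28 ± 1.40 (0.355), whose ESC counts were too few to fix it. Single libraries decided both calls. Krt18 lost its call without ESC Grb10 pA replicate 3, ESC E14 WT replicate 1 or 2, NPC Grb10 pA replicate 1 or NPC E14 WT replicate 2 or 3 (adjusted p of 0.0511 to 0.0908). Krt19 lost it without each library but ESC E14 WT replicate 3, ESC Grb10 pA replicate 2 and NPC Grb10 pA replicate 2 (0.0518 to 0.107).

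Among markers in NPC Grb10 pA against NPC E14 WT, 4 of 5 tested neural progenitor markers were lower (median log2 fold change -1.21), with Sox1 at -1.66 ± 0.12 and Nes at -1.40 ± 0.16, and the summed list lay at 267 to 324 against 649 to 705 normalized counts. Pluripotency markers were higher in 4 and lower in 1 of 9. Of the trophoblast markers, 2 of 7 were higher and 2 lower, with Hand1 at 1.02 ± 0.25 and Cdx2 at -2.75 ± 0.36, and their sum lay at 607 to 726 against 467 to 599. Extraembryonic endoderm markers were lower in 4 of 11, at a sum of 3594 to 4516 against 4623 to 6013. The surface ectoderm sum was lower, at 129 to 217 against 235 to 360. The mesoderm sums overlapped, at 46.6 to 80.7 against 28.8 to 49.5. Of 14 epithelial factors 7 were lower and 0 higher, and of 12 desmosome and linker genes 5 were lower and 0 higher. Their medians were -0.62 and -0.07 against 0.01 over all genes, of which 8.64% were lower and 7.90% higher. Of 22 junction genes 2 were higher and 2 lower (median 0.09). The part of the marker changes in the keratin levels was not tested.

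The ratio of Krt8 to Krt18 varied less over the rescue lines than over the truncation lines. Among the rescue libraries it was lowest in those of NPC-ΔZF1. Per kb of exon it was 0.405 and 0.479 in ESC-WT, 0.470 and 0.420 in ESC-ΔZF1, 0.424 and 0.394 in NPC-WT and 0.357 and 0.353 in NPC-ΔZF1. Thus Krt8 and Krt18 rose 29.7-fold and 31.2-fold in the WT line while the mean ratio went from 0.442 ± 0.0526 (SD, n = 2) to 0.409 ± 0.021. In ESC E14 WT the ratio was 1.31, 1.24 and 1.43, and in NPC E14 WT 0.327, 0.516 and 0.573. In ESC Grb10 pA it was 0.599, 0.764 and 0.703, below every ESC E14 WT library, and in NPC Grb10 pA 0.212, 0.206 and 0.25, below every other library of the series. ESC Podxl pA lay at 1.60, 1.56 and 0.944, again with replicate 3 apart, and NPC Podxl pA at 0.41, 0.513 and 0.504. In ESC E14 WT the type II gene of the pair was thus the higher per kb, and in NPCs of all lines the type I gene was.

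**Figure D5:**
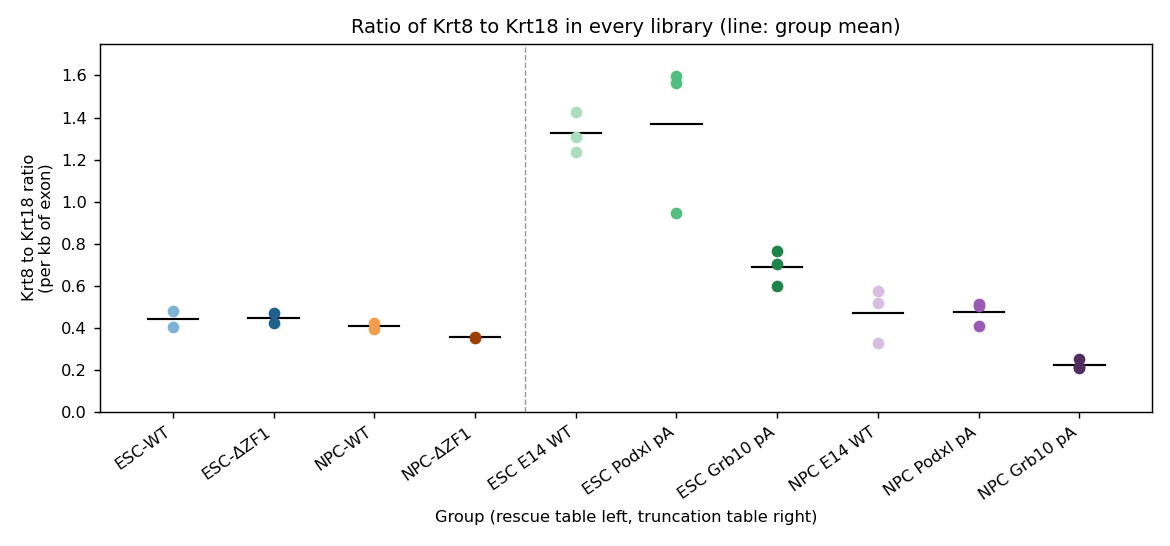
Ratio of Krt8 to Krt18 per kb of exon in every library (points) with the mean of each group (line), for the rescue lines left and the untreated lines right of the dashed line. The rescue libraries sit between 0.353 and 0.479, the ESC E14 WT libraries between 1.24 and 1.43 and the NPC Grb10 pA libraries between 0.206 and 0.25.

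The ratio of Krt7 to Krt19 per kb stayed below 0.2 in every library. It was 0.107 and 0.100 in NPC-WT and 0.134 and 0.142 in NPC-ΔZF1, without overlap, and 0.00957 to 0.0202 in ESC E14 WT against 0.0464 to 0.110 in NPC E14 WT. Krt19 lies on chromosome 11 and Krt7 on chromosome 15, and the ratios are not adjusted for this. With the chromosome 11 median in the offsets, Krt7 fell by 1.44 and Krt19 by 1.30 on the log2 scale in NPC-ΔZF1 against NPC-WT. With the lengths of the longest coding transcripts all of these ratios are 1.46 times higher.

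The members followed each other closely in the rescue table. Over its 8 libraries Pearson's r of log2 CPM between Krt8, Krt18, Krt7 and Krt19 was 0.995 to 0.999, which mostly repeats the gap between ESCs and NPCs that all share. Over the 18 libraries of the truncation table, r was 0.507 between Krt8 and Krt18, 0.124 between Krt8 and Krt19, -0.04 between Krt8 and Krt7 and 0.902 between Krt18 and Krt20. Outside the keratins, the genes most like Krt18 in both tables, by the lower of the 2 r values over 8 and 18 libraries, were Amotl2 (0.979 and 0.982), Itga3 (0.986 and 0.978) and Hand1 (0.983 and 0.977). Among those most like Krt8 were Gpat4 (0.974 and 0.903) and St7 (0.893 and 0.891), and among those most like Krt19 were Rabl6 (0.837 and 0.809) and Fnbp4 (0.921 and 0.758). These are descriptions over libraries that fall into ESCs and NPCs.

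Across groups, the order of the levels was the same for Krt8, Krt18, Krt7, Krt19 and Krt20 in the rescue lines, with NPC-WT above NPC-ΔZF1, NPC-ΔZF1 above ESC-WT, and ESC-WT and ESC-ΔZF1 overlapping in all but Krt20. In the truncation lines, Krt18, Krt19, Krt20 and Krt7 were highest in NPC Grb10 pA. For Krt18 and Krt20 its libraries lay above all others, while for Krt19 they overlapped ESC Grb10 pA and for Krt7 NPC Podxl pA and NPC E14 WT. The ESC groups overlapped for Krt18, Krt19 and Krt20. For Krt8 the order ran from NPC Podxl pA to ESC Grb10 pA, with overlap between all neighbours but ESC Podxl pA and ESC Grb10 pA.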

How the data were processed

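RNA-seq counts of 26 libraries in 10 groups were analysed. The authors depleted rRNA, prepared directional libraries, used the sns pipeline, in which STAR with its defaults placed the reads on mm10, and obtained the deposited whole-number counts per gene with featureCounts, without use of strand; the annotation is not given in the sources used here. The table of the truncation lines has 3 columns that match no sample, which were not used. Groups were taken from the labels. The counts are those of separate libraries that the study calls biological replicates, and p-values measure the spread between them.

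Each table was fitted with edgeR 4.0.16 (R 4.3.3) across all genes, with TMM normalization, filterByExpr and a mean for each group, and tested with the quasi-likelihood F test. P-values were adjusted by Benjamini-Hochberg over the 16641 genes of the rescue table and the 13268 of the other. Calls needed an adjusted p no higher than 0.05 and a log2 fold change of 0.5 or more, up or down, the cutoffs of the study, which used DESeq2. The SE is the log2 fold change divided by the square root of F. Levels per kb use the union of GENCODE M21 exons, found for 96.2% of symbols. A count of 0 was taken to allow 3 counts.

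The 7 keratins, the gene lists and the tests were chosen with earlier results of these data known. Named list genes are at most the 4 called with the largest absolute log2 fold change per list and comparison, plus markers at 0, and the 3 genes most like Krt8, Krt18 and Krt19; some of these are not reported here. Podxl, Grb10 and Krt8-ps were named for checks after their values were seen.

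On simulated data, the fit of NPC-ΔZF1 against NPC-WT (16019 genes) was tested and found 67% of genes changed by 1 and 93% of those changed by 2 on the log2 scale, with 8.6% of calls false. For NPC Grb10 pA against NPC E14 WT (12908 genes) these were 82%, 93% and 3.3%. The simulation changed few genes, in 1 group only, and all groups otherwise shared the same means. In the data 10.5% of genes fell and 7.19% rose in NPC-ΔZF1 against NPC-WT, so these shares need not hold there. Alternatives were DESeq2 1.42.0, RLE normalization, no filter, a minimum of 10 counts per library, a fit to the compared libraries alone, a replicate block, each library left out, the chromosome 11 median in the offsets, and no genes of chromosome 8. The longest coding transcript as gene length was added after seeing the data.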

Additional observations from a re-analysis of the deposited data

Results flagged for a closer look

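The difference between the Grb10 pA and E14 WT lines changed from ESCs to NPCs for Krt18, by 0.72 ± 0.20 on the log2 scale (edgeR adjusted p = 0.0269). The log2 fold change against E14 WT was 0.58 in NPCs and -0.14 in ESCs. For Krt19 the change was 1.18 ± 0.35 (edgeR adjusted p = 0.0403), with 1.06 in NPCs and -0.11 in ESCs. The truncation and other differences between the lines cannot be told apart. In both genes all 3 NPC Grb10 pA libraries were above all 3 NPC E14 WT libraries, while the ESC groups overlapped. Both calls were lost when certain single libraries were left out.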

How the results depend on the processing

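With 2 or 3 libraries a group and 1 line for each CTCF form, small differences lie below what these libraries can show, and Krt5, Krt14 and, in the untreated ESCs, Krt7 and Krt20 rest on few counts. Leaving out 1 library each kept direction and call in 401 of 474 gene and comparison values, lost the call in 27, gained it in 14 and turned the sign in 32. The other settings did so in 434, 3, 14 and 4 of 455. No called value changed sign.

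Fits that leave 1 library in a group are not counted here. The number of keratins called for the ΔZF1 effect in NPCs minus that in ESCs was 0 (3 by DESeq2, 4 without a filter). For NPC against ESC E14 WT it was 3, and 1 both with at least 10 counts in every library and with only the libraries compared, where fewer keratins were tested. For ESC Grb10 pA against ESC E14 WT it was 2, and 1 under each of these 2 settings and 1 to 2 without 1 library. For the Grb10 pA effect in NPCs minus that in ESCs it was 2, and 0 to 3 without 1 library. With the replicate number as a block it was 1, since Krt19 (1.14, adjusted p = 0.0515) lost its call. The numbers did not pair the libraries (correlations of -0.137 to 0.132 and of -0.209 to 0.154), and the block changed no other call.

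Values that turned sign had no call. For ESC-ΔZF1 against ESC-WT, log2 fold changes without 1 library ran from -0.57 to 0.26 for Krt8, -0.69 to 0.39 for Krt18, -0.50 to 0.45 for Krt7, -0.76 to 0.0075 for Krt19 and -1.71 to 0.44 for Krt14, and with the chromosome 11 median in the offsets Krt19 was at 0.11 and Krt14 at 0.0411. The ΔZF1 effect in NPCs minus that in ESCs ran from -0.39 to 0.72 for Krt20 and -1.41 to 0.74 for Krt14. Against E14 WT, ESC Podxl pA ran from -1.07 to 0.65 for Krt7, NPC Podxl pA from -0.0365 to 0.22 for Krt8 and -0.11 to 0.53 for Krt7, and ESC Grb10 pA from -0.39 to 0.0268 for Krt19 and -0.61 to 0.76 for Krt20. The Podxl pA effect on Krt7 in NPCs minus that in ESCs ran from -0.57 to 1.15, and was -0.0046 by DESeq2 and -0.0408 with the replicate block. The cause was not tested.

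With the longest coding transcript as gene length, a setting chosen after seeing the data, the mean ratio of Krt7 to Krt19 was 0.152 in NPC-WT, 0.202 in NPC-ΔZF1, 0.164 in ESC-WT, 0.202 in ESC-ΔZF1, 0.0974 in ESC Grb10 pA, 0.0222 in ESC E14 WT, 0.0864 in NPC Grb10 pA, 0.0962 in NPC Podxl pA and 0.109 in NPC E14 WT.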
